A study of Mus musculus with 2 samples.

Results

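The 30 genes described here encode enzymes of sterol synthesis, enzymes of fatty acid synthesis and the regulators that set their expression. They were taken by symbol from a list of pathway genes, and all 30 are among the 32285 genes of the deposited count tables. By role, 7 encode the enzymes from acetyl-CoA to farnesyl diphosphate, 11 the enzymes from squalene to cholesterol, 6 regulators and transfer proteins, and 6 enzymes of fatty acid synthesis and desaturation.

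Cells make cholesterol from acetyl-CoA through mevalonate, squalene and lanosterol, and fatty acids from the same precursor through malonyl-CoA. When membrane sterol is low, the carrier SCAP takes the SREBP factors to the Golgi, where cleavage frees a fragment that switches on most genes of both pathways, and the INSIG proteins hold SCAP back when sterol is plentiful. Lipoprotein cholesterol of the blood hardly reaches the adult brain, astrocytes are known to make cholesterol there and pass it to neurons, and oligodendrocytes need both lipids for myelin.

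The study compared cells of brains that had carried an intracranial graft of KR158 glioma cells, a mouse line, for 8 weeks, by droplet 3′ single-cell RNA-seq of tissue near the injection site. The cKO library came from the genotype Cx3cr1 CreER/+ Plxnb2fl/fl, and the control library, titled WT, from Cx3cr1 CreER/+ Plxnb2 fl/+, so that both carried the tamoxifen-inducible Cre allele and the control carried 1 floxed Plxnb2 allele. Hosts of both genotypes were C57BL/6 and received tamoxifen at 100 mg/kg every other day, starting 3 days before grafting. The labels used here state neither their ages nor how many went into each library. Cx3cr1 drives the Cre in microglia and other macrophages, and with 1 library per genotype the genotype, the animal and the library preparation cannot be told apart.

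After filtering, 5206 cells of the cKO library and 7645 cells of the control library remained, with medians of 5917 UMIs (distinct RNA molecules) per cKO cell and 4626 per control cell, and 8 barcodes occurred in both. Plxnb2, the deleted gene, stood at 36.8 CPM (UMIs per 1000000 UMIs of the class) in cKO microglia and 198 CPM in control microglia, against 38.5 CPM in cKO astrocytes and 33.0 CPM in control astrocytes. Clusters were named from marker lists, and every named class used below had at least 8 detected markers, except vascular smooth muscle with 6. No cluster carried the name of the tumour line. Gene models that resemble ribosomal RNA took 1.91% of UMIs in cKO astrocytes and 4.10% in control astrocytes, and the choroid plexus held 4 cKO cells and 358 control cells. The part of these differences in the results below was not tested.

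Promoter windows were read from RefSeq sequence on GRCm38.p6, which matched 24 of the 30 genes, each window being the 250 bases before a transcript start on the gene's own strand. Capitals mark the CCAAT box, the core bound by the factor NF-Y that works beside SREBP at sterol genes (ATTGG where it lies on the other strand), and the sterol element letters TCACNCCAC, where N is any base. Shown first are the windows of the 4 genes whose level was at least 1.5-fold lower in cKO astrocytes, Cyp51 (chr5:4104698-4104947, minus strand), Insig1 (chr5:28071162-28071411, plus strand), Lss (chr10:76531355-76531604, plus strand) and Hsd17b7 (chr1:169969206-169969455, minus strand). They are followed by Msmo1 (chr8:64733579-64733828, minus strand), the sterol enzyme gene with the most UMIs in astrocytes, and Hmgcs1 (chr13:119690101-119690350, plus strand), the only matched member with the sterol element letters.
Cyp51: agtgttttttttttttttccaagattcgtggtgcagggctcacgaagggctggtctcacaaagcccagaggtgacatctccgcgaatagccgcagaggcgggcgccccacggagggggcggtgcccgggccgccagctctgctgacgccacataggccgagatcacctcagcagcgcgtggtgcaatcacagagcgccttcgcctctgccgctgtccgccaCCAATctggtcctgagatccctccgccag
Insig1: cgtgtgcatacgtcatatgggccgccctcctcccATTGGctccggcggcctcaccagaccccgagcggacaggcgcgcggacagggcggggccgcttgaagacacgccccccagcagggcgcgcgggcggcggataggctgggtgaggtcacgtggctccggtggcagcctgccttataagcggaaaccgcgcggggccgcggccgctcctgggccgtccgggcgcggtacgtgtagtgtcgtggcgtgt
Lss: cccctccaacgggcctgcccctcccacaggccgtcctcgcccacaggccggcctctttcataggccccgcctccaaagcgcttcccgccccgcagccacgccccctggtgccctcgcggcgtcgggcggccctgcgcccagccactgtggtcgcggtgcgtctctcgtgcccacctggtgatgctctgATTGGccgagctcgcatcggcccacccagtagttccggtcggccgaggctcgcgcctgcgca
Hsd17b7: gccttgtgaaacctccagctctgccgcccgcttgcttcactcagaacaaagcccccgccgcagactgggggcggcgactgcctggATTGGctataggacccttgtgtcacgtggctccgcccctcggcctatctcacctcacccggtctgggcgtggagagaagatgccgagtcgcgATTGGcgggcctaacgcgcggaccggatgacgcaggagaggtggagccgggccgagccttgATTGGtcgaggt
Msmo1: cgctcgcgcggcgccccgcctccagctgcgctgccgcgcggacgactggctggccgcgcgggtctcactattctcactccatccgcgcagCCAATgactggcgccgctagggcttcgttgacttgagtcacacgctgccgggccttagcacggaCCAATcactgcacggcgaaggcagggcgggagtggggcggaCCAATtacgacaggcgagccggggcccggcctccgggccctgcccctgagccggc
Hmgcs1: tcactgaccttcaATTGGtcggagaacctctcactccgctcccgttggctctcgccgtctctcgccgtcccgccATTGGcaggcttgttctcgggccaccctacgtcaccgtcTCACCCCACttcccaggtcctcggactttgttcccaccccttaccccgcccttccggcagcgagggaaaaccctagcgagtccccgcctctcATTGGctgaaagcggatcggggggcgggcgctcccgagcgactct

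CCAAT stood on either strand in at least 1 window of 19 of the 24 matched genes, or 79.2%, and in 37.5% of the 27025 genes with windows of this length. The matched members without it were Acat2, Acaca, Acly, Elovl6 and Scap. The only Acaca window (chr11:84195188-84195437) lay within the annotated gene, which starts at 84129672 on the plus strand. It therefore does not cover the bases before that start. The boxes of Cyp51, Msmo1, Idi1, Dhcr7 and Tm7sf2 also lay within the annotated gene, not before its start. The annotated starts of Cyp51 and Msmo1 are 4104746 and 64733792 on the minus strand. The Dhcr7 boxes were in the window chr7:143829964-143830213, and that gene starts at 143823145 on the plus strand. The last Hsd17b7 box lay within the gene too, which starts at 169969241 on the minus strand. Within the windows shown, Cyp51, Insig1 and Lss had 1 such box each, and Hsd17b7, Msmo1 and Hmgcs1 had 3 each. The letters TCACNCCAC occurred in 1 of the 24 genes, or 4.17%, and in 1.22% of all genes. The E-box form of the sterol element, TCACNTGA, occurred in a window of Insig2 alone, and in 3.98% of all genes. These are letter matches within short windows and say nothing of binding.

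Summed sterol enzyme RNA was highest in astrocytes in both libraries. The 18 enzyme genes from Acat2 to Dhcr7 summed to 2284 CPM in cKO astrocytes (95% Poisson interval 2252 to 2318) and to 2611 CPM in control astrocytes (2582 to 2639). Oligodendrocytes followed at 1122 CPM in the cKO library and 1139 CPM in the control library, and neuroblasts, migrating immature neurons, at 1034 CPM and 854 CPM in the cKO and control libraries. The intervals of oligodendrocytes and neuroblasts did not overlap in either library. All other classes were at or under 465 CPM in the cKO library, and in the control library border macrophages reached 619 CPM. Microglia held 298 CPM in the cKO library and 308 CPM in the control library, so that the astrocyte sum was 7.68-fold the microglial sum in the cKO library and 8.47-fold in the control library. Msmo1 alone gave 874 CPM of the astrocyte sum in the cKO library and 963 CPM in the control library. It was at 150.1 CPM (cKO) and 162 CPM (control) in oligodendrocytes and at 40.0 CPM (cKO) and 47.8 CPM (control) in microglia. This gene therefore raised the lead of the astrocyte sum over both classes. These intervals, like all intervals here, cover counting error only.

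**Figure D1:**
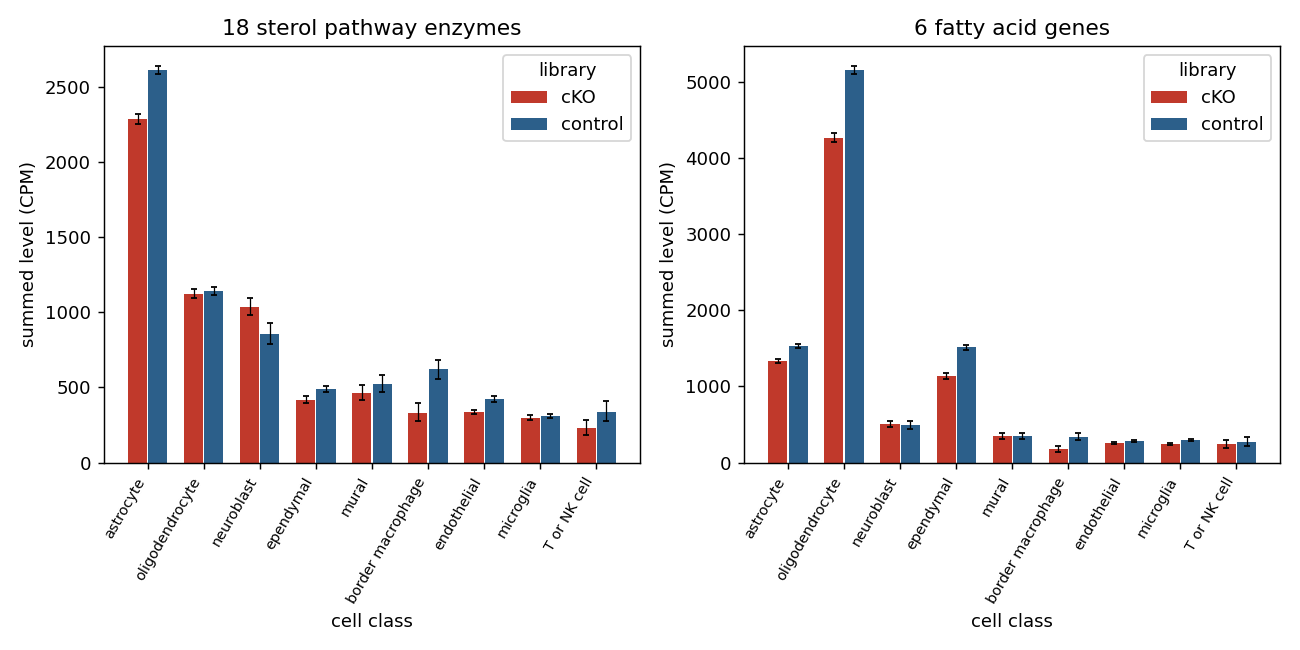
Summed level (CPM, linear axis) of the 18 sterol pathway enzymes (left) and the 6 fatty acid genes (right) in 9 cell classes, with cKO bars left of control bars and 95% Poisson intervals. Astrocytes lead the sterol panel at 2284 CPM in the cKO library and 2611 CPM in the control library, and oligodendrocytes lead the fatty acid panel at 4271 CPM and 5164 CPM.

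The 6 fatty acid genes had another order. Oligodendrocytes stood at 4271 CPM in the cKO library and 5164 CPM in the control library, which was 3.20-fold the astrocyte sum in the cKO library and 3.37-fold in the control library. Astrocytes held 1336 CPM (cKO) and 1531 CPM (control), ependymal cells, the ciliated lining of the ventricles, 1136 CPM (cKO) and 1516 CPM (control), and neuroblasts 505 CPM (cKO) and 494 CPM (control). Each remaining class was under 350 CPM in both libraries, apart from the choroid plexus at 569.6 CPM in the control library. Scd2 made up most of the oligodendrocyte sum. Levels of different genes were counted at the 3′ end and are not scaled by gene length, so that the sums weight genes by their molecules.

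Gene by gene, astrocytes were the highest of the classes for 15 of the 30 genes in the cKO library and for 15 of 30 in the control library. Oligodendrocytes led for 6 genes in each, and 25 of the 30 genes had the same highest class in both libraries. The 5 that differed were Lss, Cyp51, Sc5d, Srebf1 and Acly, and in each of these except Lss and Cyp51 the intervals of the leading classes overlapped in both libraries. Lss led in ependymal cells of the cKO library at 31.8 CPM, against 18.9 CPM in astrocytes, and in astrocytes of the control library at 35.3 CPM, against 30.5 CPM in ependymal cells. Cyp51 was at 84.3 CPM in oligodendrocytes and 74.1 CPM in astrocytes of the cKO library, and at 88.6 CPM in oligodendrocytes and 131 CPM in astrocytes of the control library. Between the classes named, intervals overlapped for Lss in the control library and for Cyp51 in the cKO library.

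**Figure D2:**
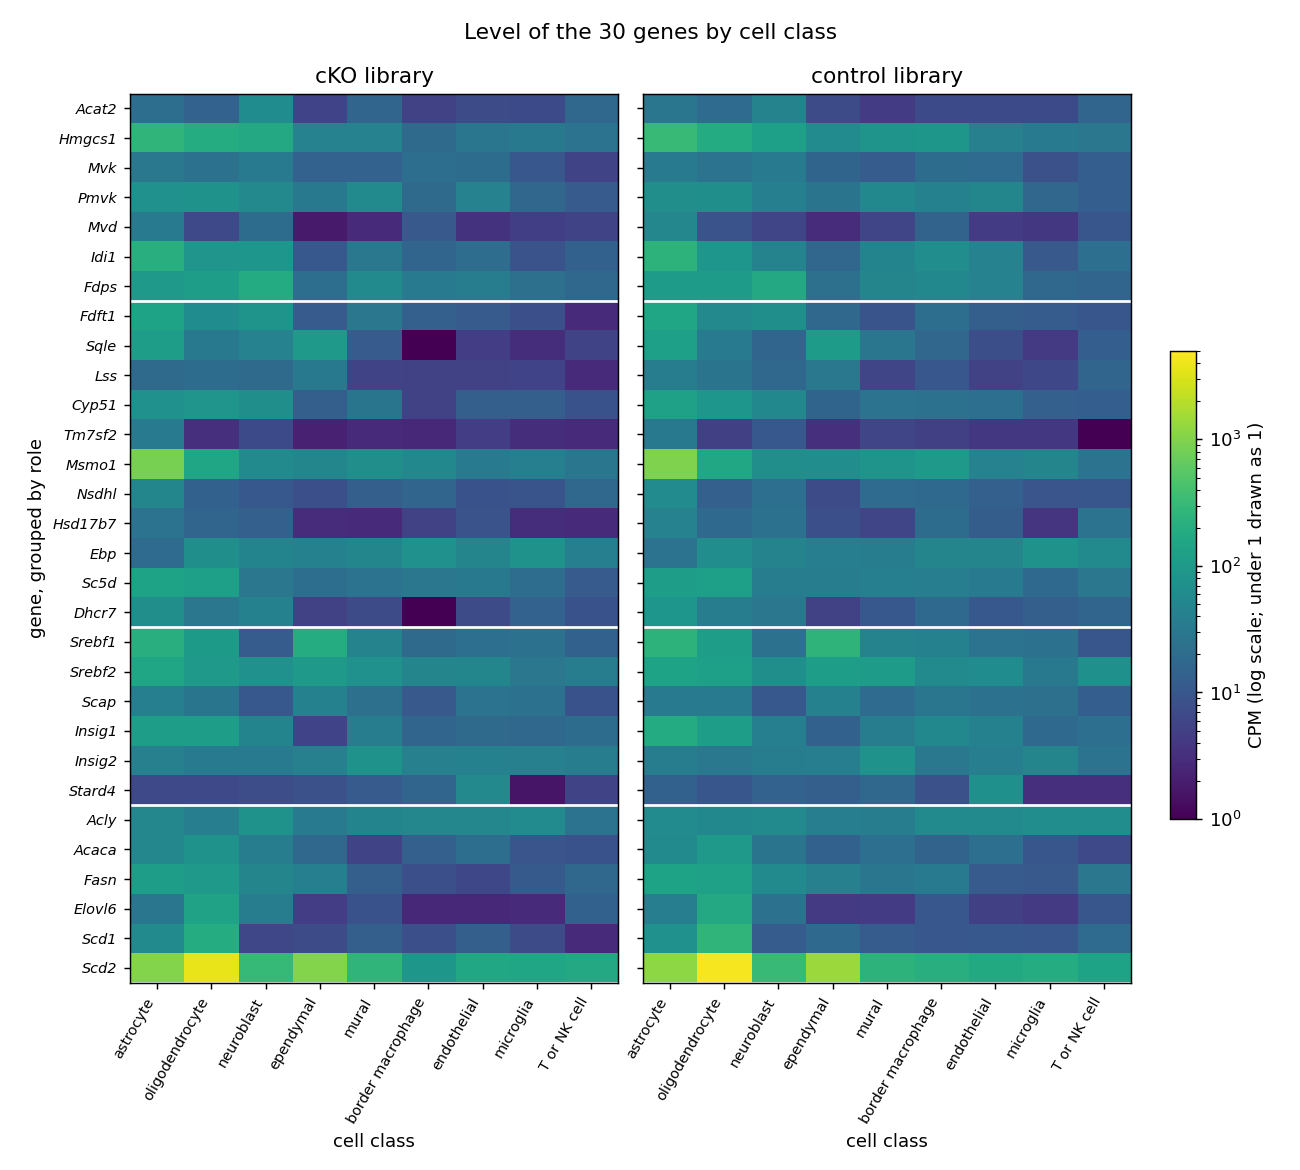
Level of each of the 30 genes (rows, grouped by role with white lines between mevalonate enzymes, squalene to cholesterol enzymes, regulators and fatty acid genes) in 9 cell classes (columns), as CPM on a log colour scale, for the cKO library (left) and the control library (right). Msmo1 in astrocytes (874 CPM in the cKO library, 963 CPM in the control library) and Scd2 in oligodendrocytes (3726 CPM and 4450.2 CPM) are the brightest cells of their groups.

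Among the mevalonate enzymes, Hmgcs1, the synthase that makes HMG-CoA, stood at 263 CPM in cKO astrocytes and 306 CPM in control astrocytes. Its next class was oligodendrocytes, at 196 CPM in the cKO library and 189 CPM in the control library. Idi1, the isomerase of isopentenyl diphosphate, was at 207 CPM in cKO astrocytes and 247 CPM in control astrocytes, and its lowest class was microglia at 8.79 CPM (cKO) and 10.7 CPM (control). Mvd, the mevalonate diphosphate decarboxylase, was also highest in astrocytes, at 34.6 CPM (cKO) and 51.1 CPM (control), and was at 1.83 CPM (cKO) and 2.94 CPM (control) in ependymal cells.

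Fdps, which makes farnesyl diphosphate, departed from this order, with its highest level in neuroblasts at 187 CPM in the cKO library and 169 CPM in the control library. Acat2, the cytosolic thiolase that opens the pathway, was highest in neuroblasts too, at 62.2 CPM (cKO) and 44.5 CPM (control), although in the control library its interval overlapped that of astrocytes. Mvk and Pmvk, the kinases of the pathway, did not differ beyond counting error between their highest classes. Mvk was at 32.6 CPM in neuroblasts and 29.9 CPM in astrocytes of the cKO library, and at 34.1 CPM and 32.9 CPM in the same classes of the control library.

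From squalene onward, Msmo1, a methyl sterol oxidase that acts after Cyp51, had by far the most UMIs, with 874 CPM in cKO astrocytes and 963 CPM in control astrocytes. The next class, oligodendrocytes, was 5.82-fold lower in the cKO library and 5.94-fold lower in the control library. With each cell thinned to 1000 UMIs, 53.1% of cKO astrocytes and 55.2% of control astrocytes held a Msmo1 UMI, against 4.55% of cKO microglia and 4.60% of control microglia. Before thinning these shares were 84.6% and 86.1% of cKO and control astrocytes and 18.2% and 17.1% of cKO and control microglia. The microglial level of Msmo1 was 4.58% of the astrocyte level in the cKO library and 4.97% in the control library, where the astrocyte marker Slc1a2 was at 3.21% (cKO) and 5.21% (control), Aldoc at 2.31% (cKO) and 3.95% (control) and Aqp4 at 2.43% (cKO) and 3.40% (control). The part of astrocyte RNA in the microglial Msmo1 level was not tested.

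Fdft1, the squalene synthase, was at 140.2 CPM in cKO astrocytes and 150.0 CPM in control astrocytes. Sqle, the squalene epoxidase and a rate-limiting step, was shared by astrocytes and ependymal cells, at 114 CPM and 101 CPM in the cKO library and at 123 CPM and 108 CPM in the control library, with overlapping intervals. Tm7sf2, a sterol reductase, was at 32.2 CPM in cKO astrocytes and 30.8 CPM in control astrocytes, and no other class passed 10.4 CPM in either library. Ebp, the isomerase that moves a double bond of the sterol ring, ran against the other enzymes: it was highest in microglia, at 76.3 CPM (cKO) and 79.8 CPM (control), and lowest in astrocytes, at 19.4 CPM (cKO) and 25.5 CPM (control). The microglial interval overlapped those of border macrophages, oligodendrocytes and mural cells in the cKO library. In the control library it overlapped that of T or NK cells. The astrocyte interval overlapped that of T or NK cells (cKO) and those of choroid plexus and mural cells (control).

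Sc5d, a sterol desaturase, was at 138 CPM in astrocytes and 122 CPM in oligodendrocytes of the cKO library, and at 119 CPM and 124 CPM in those classes of the control library. Dhcr7, the reductase of the last step, Nsdhl, a dehydrogenase of the demethylation complex, and Hsd17b7, the ketoreductase of the same complex, were highest in astrocytes in both libraries, although control Hsd17b7 overlapped the intervals of T or NK cells and neuroblasts.

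The regulators divided by class. Srebf1, the SREBP gene tied mainly to fatty acid synthesis, was equally high in astrocytes and ependymal cells within counting error, at 209 CPM and 193 CPM in the cKO library and 248 CPM and 252 CPM in the control library. In neuroblasts it was at 12.1 CPM in the cKO library and 23.7 CPM in the control library, from 16 UMIs each. Srebf2, tied mainly to cholesterol synthesis, varied less, with 148 CPM in cKO astrocytes and 142 CPM in control astrocytes, and 29.6 CPM (cKO) and 31.6 CPM (control) in microglia, its lowest class. Scap was highest in ependymal cells at 41.7 CPM (cKO) and 42.0 CPM (control), although in the cKO library its interval overlapped that of astrocytes.

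The INSIG genes differed in their highest classes. Insig1, itself an SREBP target, was at 114 CPM in cKO astrocytes and 191 CPM in control astrocytes, and lowest in ependymal cells at 5.48 CPM (cKO) and 14.0 CPM (control). Insig2 was highest in mural cells (pericytes and vascular smooth muscle) at 77.9 CPM (cKO) and 76.5 CPM (control) and between 25.8 and 60.7 CPM in all other classes of both libraries. Stard4, a cholesterol transfer protein, was an endothelial gene in these data, with 55.8 CPM in cKO and 72.9 CPM in control endothelial cells, 3.47-fold and 4.05-fold above the next class.

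Among the fatty acid genes, Scd2, the main desaturase of the mouse brain, reached 3726 CPM in cKO oligodendrocytes and 4450.2 CPM in control oligodendrocytes. After thinning, 96.6% of cKO oligodendrocytes and 96.1% of control oligodendrocytes held a Scd2 UMI, against 16.0% of cKO microglia and 17.3% of control microglia. Before thinning the shares were 100.0% (cKO) and 99.8% (control) of oligodendrocytes and 49.2% (cKO) and 48.3% (control) of microglia. Scd1, its paralog, was at 196 CPM in cKO oligodendrocytes and 264 CPM in control oligodendrocytes, and Elovl6, the elongase of palmitate, at 135 CPM (cKO) and 169 CPM (control). The last 500 bases of the Scd1 and Scd2 transcripts shared 0 of 451 windows of 50 bases, so the genes can be told apart at the end that this assay reads.

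Scd2 in astrocytes was 27.6% of the oligodendrocyte level in the cKO library and 26.1% in the control library, where the myelin basic protein gene Mbp was at 2.13% (cKO) and 1.81% (control). Fasn, the fatty acid synthase, was at 119.5 CPM in cKO astrocytes and 139 CPM in control astrocytes, and at 95.7 CPM (cKO) and 131 CPM (control) in oligodendrocytes. Acaca, the acetyl-CoA carboxylase, was highest in oligodendrocytes at 79.6 CPM (cKO) and 97.1 CPM (control). Acly, which makes cytosolic acetyl-CoA from citrate, was the flattest of the 6, with its highest class 3.09-fold above the lowest in the cKO library and 2.10-fold in the control library. The lowest class was T or NK cells in the cKO library, at 25.8 CPM from 9 UMIs. In the control library it was the choroid plexus at 30.9 CPM, a class given no level in the cKO library.

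Across the 9 classes with at least 50 cells in both libraries, the rank order of single members was set against that of the sterol enzyme sum with Spearman's rho, as a description over points that share libraries and depth. Hmgcs1 had rho 0.87 in the cKO library and 0.98 in the control library, and Idi1 0.85 and 0.90. Ebp had -0.28 (cKO) and -0.47 (control), and Insig2 -0.22 (cKO) and -0.28 (control). The genes outside the list with the most similar order were Pmm1, Gstm5, Agpat5, Tmem63b, B3galt1, Mrps25, Myo18a, Cdip1, Kif1a and Cntfr, with mean rho between 0.89 and 0.93 over both libraries, among 7216 genes ranked. In all, 12 genes reached the rho of the last one named, so the 10 named end within a tie.

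Astrocytes themselves were not uniform. In cluster 0, the largest, led by Ppp1r3g and Cxcl14, the 18 enzymes summed to 2717 CPM in the cKO library and 3092 CPM in the control library. Cluster 11, with the protoplasmic markers Slc7a10 and Emx2, held 2027 CPM (cKO) and 3158 CPM (control). Cluster 4, marked by Agt and Slc6a11, held 1236 CPM (cKO) and 1497 CPM (control), and cluster 13, marked by Thbs4 and Gfap, 1505 CPM (cKO) and 1552 CPM (control). The enzymes and the other listed pathway genes were kept out of the genes used for clustering, so they did not define these clusters. Cluster 9, of low depth and led by Igha and Jchain, held 2320.1 CPM (cKO) and 2520.4 CPM (control). The fatty acid sum had another order, highest in cluster 13 at 2055 CPM (cKO) and 1996 CPM (control) and lowest in cluster 0 at 1079 CPM (cKO) and 1346 CPM (control). Between them, cluster 4 held 1608 CPM (cKO) and 1847 CPM (control), cluster 11 held 1339 CPM (cKO) and 1780.2 CPM (control), and cluster 9 held 1402 CPM (cKO) and 1485 CPM (control).

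Between the libraries, astrocytes showed a lower level of 4 of 29 tested members in the cKO library and a higher level of 0. Lower or higher means a difference of at least 1.5-fold with an exact 95% counting interval that excludes equality, among genes with at least 20 CPM on average. Of all 6472 genes tested in astrocytes, 0.989% were lower in the cKO library by the same rule and 0.726% were higher. With 1 library per genotype no test over animals exists, and these counts compare 2 libraries.

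The astrocyte members lower in the cKO library were Lss, Cyp51, Hsd17b7 and Insig1. Lss, the lanosterol synthase, was at 18.9 CPM in cKO astrocytes (153 UMIs) and 35.3 CPM in control astrocytes (432 UMIs), a log2 ratio of -0.90 (interval -1.18 to -0.63). Cyp51, the demethylase that acts on lanosterol, was at 74.1 CPM (cKO) and 131 CPM (control), a log2 ratio of -0.83 (-0.96 to -0.69). Hsd17b7 was at 25.4 CPM (cKO) and 43.2 CPM (control), a log2 ratio of -0.76 with an interval that ended at -0.53.

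Insig1, the sterol-dependent brake on SREBP, was at 114 CPM in cKO astrocytes and 191 CPM in control astrocytes, a log2 ratio of -0.74 (-0.86 to -0.63). None of these 4 rested on a few cells, since the cell with the most UMIs of the gene gave at most 1.96% of them in either library. After thinning to 1000 UMIs, 109 of 1527 cKO astrocytes and 315 of 2618 control astrocytes held a Cyp51 UMI, and before thinning 27.9% (cKO) and 38.8% (control) did. In microglia the thinned Cyp51 shares were 1.60% (cKO) and 1.58% (control). For Insig1 the thinned shares were 10.2% (cKO) and 16.5% (control), against 1.87% (cKO) and 1.51% (control) in microglia, and the unthinned astrocyte shares were 38.6% (cKO) and 50.4% (control).

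**Figure D3:**
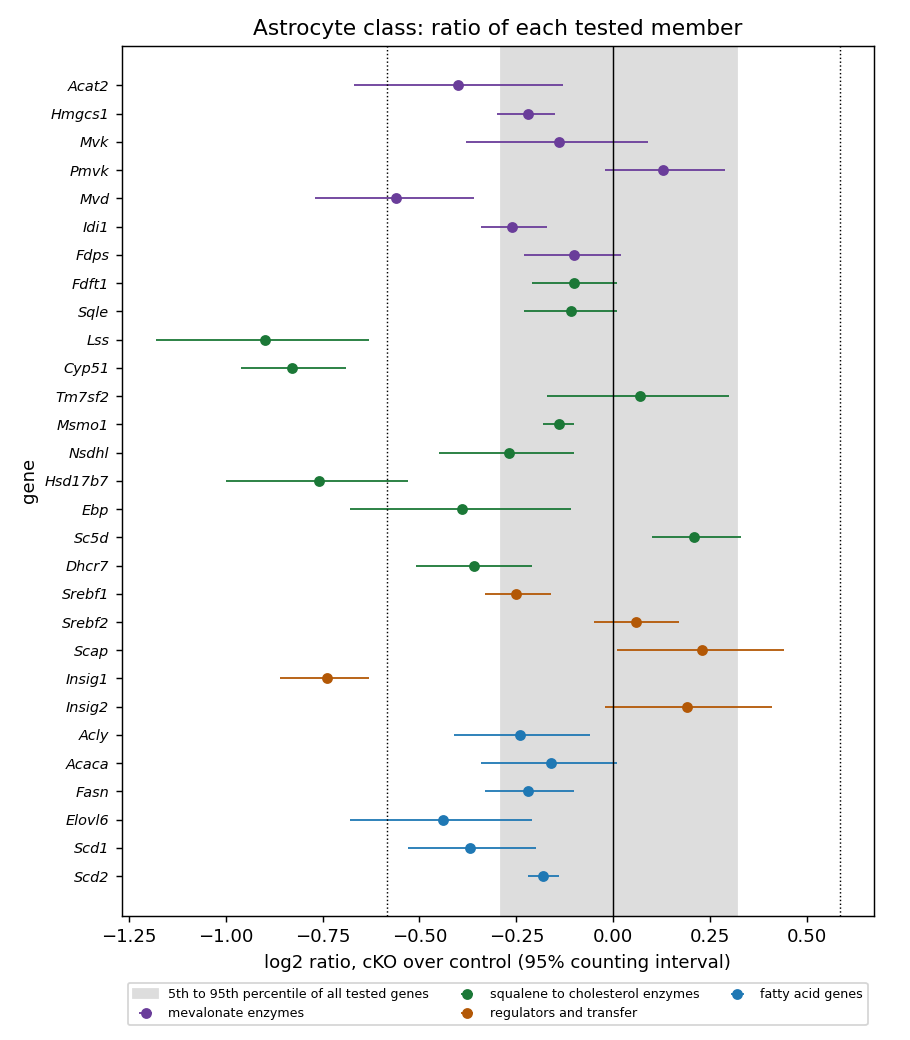
Log2 ratio, cKO over control, of the 29 members tested in astrocytes, with 95% counting intervals, coloured by role. Dotted lines mark 1.5-fold, and the grey band holds the 5th to 95th percentile of all tested genes (-0.29 to 0.32). Lss, Cyp51, Hsd17b7 and Insig1 lie left of the dotted line at -0.90 to -0.74.

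The other 25 tested astrocyte members were within 1.5-fold of equality. In all, 23 of 29 had a log2 ratio under 0, and their median was -0.22, against 0.03 over all tested genes. Counts of 23 and 6 on the sides of 0 were found under each of 3 scalings (all UMIs, all UMIs without mitochondrial and rRNA-like ones, and median ratio). Acat2 (-0.40), Ebp (-0.39), Dhcr7 (-0.36), Nsdhl (-0.27), Idi1 (-0.26), Srebf1 (-0.25) and Hmgcs1 (-0.22) had intervals under 0, and Mvk, Fdps and Fdft1 lay between -0.14 and -0.10 with intervals that included it. All 6 fatty acid genes lay under 0, from -0.44 for Elovl6 to -0.16 for Acaca, and Scd2 was at 1027 CPM (cKO) and 1160.0 CPM (control), a log2 ratio of -0.18 (-0.22 to -0.14). Msmo1 differed little at -0.14 (-0.18 to -0.10), and Sqle at -0.11 (-0.23 to 0.01) had an interval that included equality.

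Sc5d, Scap, Insig2, Pmvk, Tm7sf2 and Srebf2 lay above 0, by 0.23 or less. Mvd was just inside the limit at -0.56 (-0.77 to -0.36), with 34.6 CPM in cKO astrocytes and 51.1 CPM in control astrocytes. Stard4, under the level minimum, had 53 UMIs in cKO astrocytes and 170 in control astrocytes. Further genes of these pathways, 24 around sterols and 35 around fatty acids, gave 16 and 20 tested in astrocytes and 0 calls in either direction. Their medians were -0.01 and -0.04. Their log2 ratios ran from -0.49 to 0.29 for the genes around sterols and from -0.51 to 0.40 for those around fatty acids.

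Within the 5 astrocyte clusters with at least 50 cells in both libraries, Cyp51 was lower in the cKO library in all 5. Its log2 ratio was -0.94 in cluster 0, -1.08 in cluster 4, -0.91 in cluster 9, -0.81 in cluster 11 and -0.62 in cluster 13. Insig1 was lower by the same rule in clusters 0, 9 and 11, and in clusters 4 and 13 its log2 ratios of -0.35 and -0.41 were within 1.5-fold. Hsd17b7 was lower in clusters 0 and 9. Lss was lower in cluster 0, at 16.5 CPM (cKO) and 40.5 CPM (control), and not in clusters 9 and 11. In clusters 4 and 13 it was under the level minimum, with 9.08 CPM (cKO) and 20.4 CPM (control) in cluster 13, a log2 ratio of -1.17 (-2.40 to -0.04). Of all tested genes, 1.14% were lower and 0.528% higher in cluster 0, 2.24% lower and 3.84% higher in cluster 4, and 2.95% lower and 3.56% higher in cluster 9. The shares were 8.82% lower and 11.7% higher in cluster 11, and 5.12% lower and 3.44% higher in cluster 13.

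**Figure D4:**
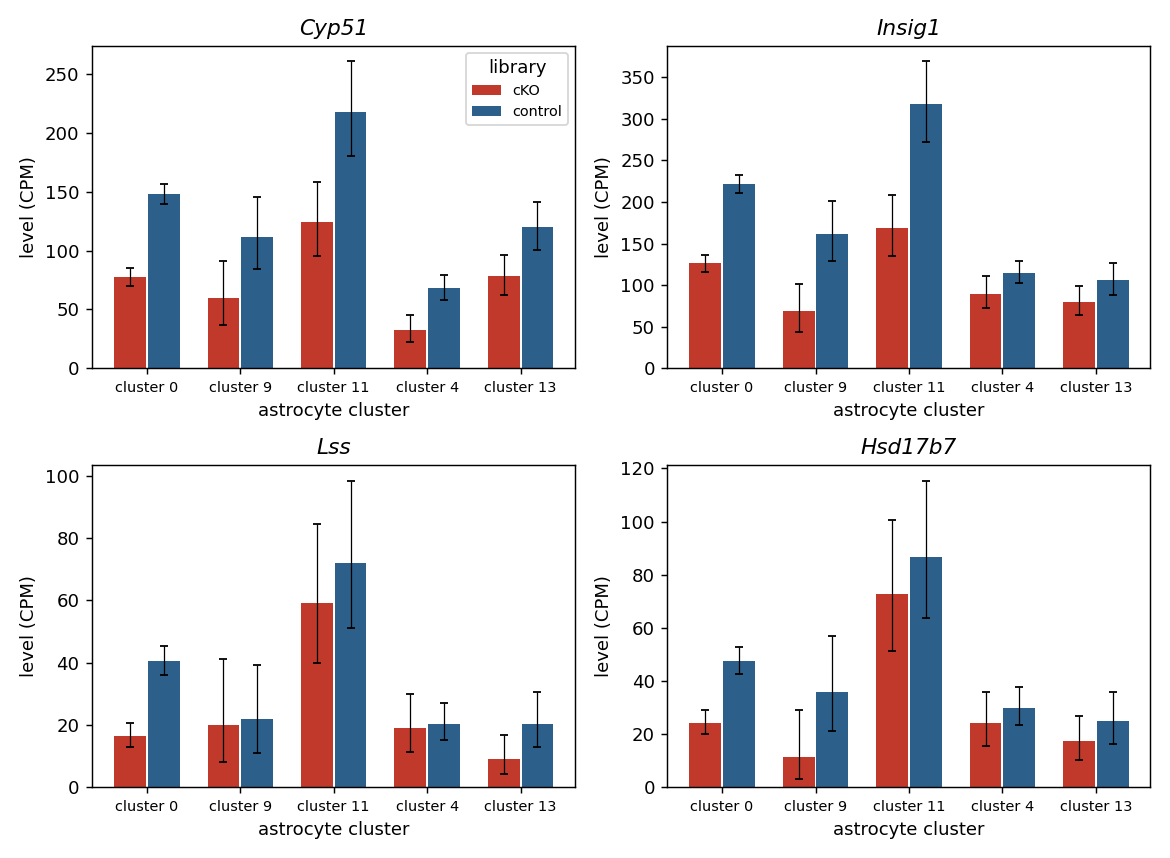
Level (CPM, linear axes from 0) of Cyp51, Insig1, Lss and Hsd17b7 in 5 astrocyte clusters, with cKO bars left of control bars and 95% Poisson intervals. Each cKO bar of Cyp51 is under its control bar, with log2 ratios from -1.08 to -0.62, while the Lss intervals overlap in all clusters except cluster 0.

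Of the 24 members tested in all 5 clusters, 9 (37.5%) had a log2 ratio under 0 in every one and 0 had a ratio above 0 in every one, where 5.36% of the 4720 genes tested in all 5 lay under 0 in every one and 7.35% above. The 9 were Acat2, Sqle, Cyp51, Msmo1, Hsd17b7, Dhcr7, Srebf1, Insig1 and Fasn. The clusters share their libraries, so these are not independent repeats. Members higher in the cKO library were Tm7sf2 at 1.42 (0.09 to 2.86, from 15 cKO and 8 control UMIs) and Pmvk at 0.66 (0.05 to 1.29) in cluster 9, and Sc5d at 0.61 (0.23 to 0.99) in cluster 13. In cluster 11 Msmo1 was lower too, at 788 CPM (cKO) and 1265 CPM (control), a log2 ratio of -0.68 (-0.86 to -0.50), and 8 of 28 tested members were lower there. That cluster had the highest share of all genes past the limit of the 5, in both directions.

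In oligodendrocytes no tested member of 24 was lower or higher by 1.5-fold, where 1.33% of all tested genes were lower and 0.396% higher. All 6 fatty acid genes lay under 0 in this class, from Acly at -0.47 (-0.73 to -0.20) and Fasn at -0.45 (-0.62 to -0.28) to Scd2 at -0.26 (-0.28 to -0.23). This held under each of the 3 scalings. The 13 tested sterol enzymes had a median of -0.05, with 5 above 0 (Fdft1, Fdps, Pmvk, Ebp and Hmgcs1) and 8 under 0, the lowest being Lss at -0.41 (-0.78 to -0.04) and Dhcr7 at -0.33 (-0.65 to -0.02).

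The oligodendrocyte clusters differed in size between the libraries. Cluster 22, with Cntn2, Myrf and Fa2h among its leading genes, had 17 cells in the cKO library against 93 in the control library, and Scd2 stood at 10633 CPM in the control cells. In cluster 2, which held 542 cKO and 847 control cells, Scd2 was at 3602 CPM in the cKO library and 3905 CPM in the control library, and the 6 genes summed to 4140.0 CPM and 4577 CPM. The class sums, with cluster 22 included, were 4271 CPM (cKO) and 5164 CPM (control).

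Endothelial cells had 2 of 16 tested members lower in the cKO library and 0 higher, where 1.37% of all tested genes were lower and 1.05% higher. Insig1 was at 19.1 CPM in cKO and 41.6 CPM in control endothelial cells, a log2 ratio of -1.12 (-1.42 to -0.83). Idi1 was at 21.0 CPM (cKO) and 43.7 CPM (control), a log2 ratio of -1.05 (-1.34 to -0.77). Hmgcs1 at -0.52 (-0.79 to -0.25) and Stard4 at -0.38 (-0.58 to -0.19) were within 1.5-fold, with intervals that excluded equality. Cluster 6 (328 cKO, 155 control cells) had all 10 endothelial markers but stayed unnamed for pericyte markers, so it is not counted above. There 5 of 16 tested members were lower and 0 higher, where 1.16% of all tested genes were lower and 1.58% higher. Their median was -0.16, with 15 under 0. Unnamed cluster 18 had these and erythrocyte markers. There 0 of 14 tested members were called and 11 lay under 0, where 3.26% of all tested genes were lower and 4.11% higher.

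Among the further pathway genes, endothelial Ch25h, which makes the oxysterol 25-hydroxycholesterol, was higher in the cKO library at 41.4 CPM, against 10.3 CPM in the control library. Fads1 and Thrsp were lower, with log2 ratios of -0.92 and -0.76. These were the 3 calls among 32 such genes tested there.

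Ependymal cells had 1 of 15 tested members lower, where 0.823% of all tested genes were lower and 1.97% higher. It was Sc5d, at 21.6 CPM in cKO cells (59 UMIs) and 37.3 CPM in control cells (203 UMIs), a log2 ratio of -0.79 (-1.23 to -0.36). Scd2 was at 1034 CPM (cKO) and 1400.5 CPM (control), a log2 ratio of -0.44 (-0.50 to -0.38), and Srebf1 at -0.39 (-0.53 to -0.24). Microglia, the cells in which the Cre is active, had 0 of 9 tested members lower and 0 higher, where 2.21% of all tested genes were lower and 2.84% higher. They were Hmgcs1, Msmo1, Ebp, Srebf1, Srebf2, Scap, Insig2, Acly and Scd2, and their ratios ran from Scd2 at -0.30 (-0.44 to -0.16) to Scap at 0.10 (-0.28 to 0.48). Of microglia, 24.5% in the cKO library and 7.98% in the control library lay in cluster 12, where the members' median was 0.36 with 10 of 12 above 0, against -0.12 over all tested genes. That cluster had a median of 1464 UMIs per cell, and the interval of each of the 12 included equality. None was called, where 7.57% of all tested genes were lower and 2.45% higher. In cluster 1, which held the rest of the named microglia, the median was -0.10 with 8 of 9 under 0. Cluster 5 (151 cKO, 378 control cells) had all 10 microglia markers but stayed unnamed for low depth, so it is not counted above. There the members' median was -0.76 with 11 of 13 under 0, against 0.12 over all tested genes. Of these 13, 0 were lower and 1 higher, where 4.62% of all tested genes were lower and 9.71% higher. Cluster 23 (51 cKO cells, 1 control cell), with these markers and cell cycle genes, was unnamed too.

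Mural cells had 2 of 17 tested members lower, where 3.03% of all tested genes were lower and 5.80% higher. Hmgcs1 was at 43.3 CPM (cKO, 30 UMIs) and 81.0 CPM (control, 54 UMIs), and Sqle rested on 8 cKO and 19 control UMIs, with an interval from -2.71 to -0.05. This class had the fewest UMIs of the 7 in each library, and its median over members was -0.00. It joins clusters whose medians lay on opposite sides of 0: in pericytes (cluster 15) the median was -0.49 with 13 of 18 members under 0, and in vascular smooth muscle (cluster 20) 0.18 with 11 of 16 above 0. That difference was not tested. Among further pathway genes, Dhdds was lower in cKO mural cells at -1.26 (-2.49 to -0.13).

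Neuroblasts ran the other way. There 2 of 21 tested members were higher in the cKO library and 0 lower, where 2.18% of all tested genes were higher and 3.44% lower. Idi1 was at 87.3 CPM in cKO neuroblasts (115 UMIs) and 44.5 CPM in control neuroblasts (30 UMIs), a log2 ratio of 0.97 (0.38 to 1.60). Sqle was at 43.3 CPM (57 UMIs) and 16.3 CPM (11 UMIs) in the cKO and control libraries, a log2 ratio of 1.41 (0.46 to 2.49).

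A single control cell held 20.0% of the Idi1 UMIs of control neuroblasts, and without the top cell of each library the levels were 81.3 CPM (cKO) and 36.4 CPM (control). The 13 tested sterol enzymes had a median of 0.39, with 10 above 0, against a median of 0.01 over all tested genes. Por, the reductase that supplies electrons to Cyp51 and Sqle, the acyl-CoA synthetase gene Acsl6 and the fatty acid elongation gene Hacd3 were lower in cKO neuroblasts, with log2 ratios of -0.92, -1.17 and -0.60.

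**Figure D5:**
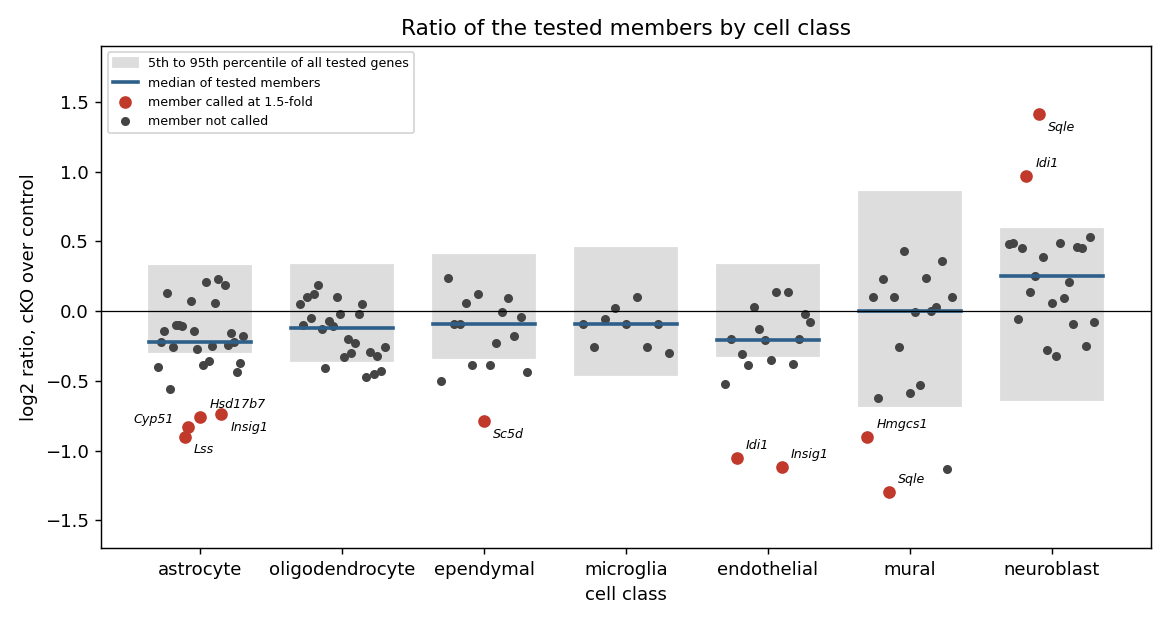
Log2 ratio, cKO over control, of the tested members in 7 cell classes. Each point is a member, red points pass 1.5-fold with an interval excluding equality and are named, blue lines are the members' medians (-0.22 in astrocytes, 0.25 in neuroblasts), and grey boxes hold the 5th to 95th percentile of all tested genes in that class.

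Over the 7 classes, 131 pairs of member and class were tested, of which 9 were lower and 2 higher in the cKO library, where 1.87% of all gene and class pairs were lower and 2.17% higher. Msmo1 lay under 0 in all 7 classes, from -0.39 in endothelial and ependymal cells to -0.11 in oligodendrocytes, and in none did it pass 1.5-fold. Fasn lay under 0 in each of the 5 classes where it was tested, with 0 calls. Insig2, Ebp and Scap were called in 0 classes, with ratios between -0.39 and 0.43. Classes share a library and its free RNA, so their agreement in direction is not a repeat of the comparison.

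Border macrophages, the macrophages of meninges and vessels in which Cx3cr1 can also drive the Cre, had 69 cKO and 128 control cells in cluster 14, under the 100-cell limit, and were chosen after their values were seen. There 6 of 15 tested members were lower in the cKO library and 0 higher, where 3.57% of all tested genes were lower and 5.39% higher. Hmgcs1 was at 18.8 CPM (7 UMIs) in the cKO library and 92.2 CPM (55 UMIs) in the control library, a log2 ratio of -2.29 (-3.67 to -1.15). One control cell held 34.5% of the control Hmgcs1 UMIs, and without the top cell of each library the levels were 16.7 CPM (cKO) and 61.1 CPM (control). Idi1 had a log2 ratio of -2.02, with 10.9 CPM (cKO) and 45.9 CPM (control) without the top cells, Insig1 -1.73, Scd2 -1.20 and Msmo1 -0.90, and Fasn, with 3 cKO and 20 control UMIs, -2.05 (-4.45 to -0.30).

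The 18 sterol enzymes summed to 331 CPM (cKO) and 619 CPM (control) in border macrophages, and 1 control cell held 83 of the 369 control UMIs. Without the top cell of each library the sums were 306 CPM (cKO) and 486 CPM (control). After thinning, 23.2% of cKO and 23.4% of control cells held a UMI of these enzymes, and before thinning 68.1% (cKO) and 68.0% (control). Astrocyte RNA moved with the difference: Slc1a2 stood at 1.81% of its astrocyte level in cKO and 7.21% in control border macrophages, and Aldoc at 1.03% (cKO) and 4.76% (control). Its part in the result was not tested.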

How the data were processed

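Per the labels' protocols, tissue was dissociated with papain, and 10x Genomics 3′ v3.1 libraries were made. The authors deposited UMI counts (raw, by gene and barcode) from Cell Ranger 7.1.0 on mm10, per the submitters' processing notes. Whether intronic reads were counted is not stated there. The cKO table was unfiltered, with 2377349 barcodes (63785513 UMIs), and the control table has 10942 barcodes of at least 500 UMIs (64756949 UMIs).

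Barcodes with at least 1000 UMIs, at least 500 genes and at most 10% mitochondrial UMIs were kept, and Scrublet calls were removed (192 cKO, 423 control). The libraries were clustered jointly, without integration, on log counts scaled to 10000 UMIs (scanpy 1.11.5, 2000 variable genes, 30 components, 15 neighbours, leidenalg 0.10.2 at resolution 1.0), leaving out the members and the other listed pathway genes. A class name needed at least 3 markers detected in 10% of cells at 2-fold. A cluster with at least 75% of a second class's markers stayed unnamed, as did an astrocyte or oligodendrocyte cluster with 50% of the other's, a limit set after the data were seen. Clusters with more markers of another class than of their own among their 10 leading genes also stayed unnamed. The same held for clusters with none of their own markers there and a median depth more than 3-fold under that of their main library. Intervals are exact Poisson for levels, exact conditional (Clopper-Pearson) for ratios and exact binomial for shares, at 95%, and cover counting error only. Classes with 100 cells in both libraries were compared, levels are given from 50 cells, and no p-value is given. The members and lists were chosen with earlier results of these data known. The text names the members by role, up to 4 called genes of the other pathway lists per class, and the genes outside the list most like the sterol sum. One called gene of the other pathway lists is not reported here. Scripts were tested on simulated astrocyte sums over 6395 genes, where true log2 ratios of 1, -1, 2 and -2 gave medians of 0.97, -0.99, 1.97 and -2.05, and 100.0%, 78.0%, 100.0% and 84.0% of the changed genes were called the right way, so decreases were missed more often than increases. Alternatives were other UMI floors, mitochondrial limits, doublet handling, resolutions, clustering genes, scalings, thinning, level minimums and fold limits.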

Additional observations from a re-analysis of the deposited data

Results flagged for a closer look

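Idi1 was singled out because its ratio had opposite signs in different classes, with a log2 ratio of 0.97 in neuroblasts (87.3 CPM in the cKO library, 44.5 CPM in the control library) and -1.05 in endothelial cells (21.0 CPM and 43.7 CPM). Sqle was singled out likewise, with 1.41 in neuroblasts (43.3 CPM in the cKO library, 16.3 CPM in the control library) and -1.30 in mural cells (11.5 CPM and 28.5 CPM, from 8 and 19 UMIs). The difference between classes was not tested for either gene. With cells thinned to 1000 UMIs the neuroblast calls of both genes and the endothelial call of Idi1 were lost. The mural call of Sqle held in 10 of 15 alternatives and was lost in 4, and with thinning its ratio turned to 0.54, over a range from -2.50 to 0.54.

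Scd1 stood out in barcodes outside the kept cells. Over the 1448877 cKO barcodes of 1 to 100 UMIs it was at 1509 CPM (interval 1471 to 1548), against 43.1 CPM over the kept cKO cells and 1144 CPM for Scd2 in the same low barcodes. Its level was 2063 CPM in barcodes of 1 to 10 UMIs, 243 CPM at 11 to 100, 143 CPM at 101 to 500, 83.0 CPM at 501 to 999 and 51.0 CPM from 1000 upward. The 5913 UMIs lay in 5855 barcodes with at most 3 each. Alb, an albumin gene of liver, moved with it, at 4906 CPM in barcodes of 1 to 10 UMIs and 0.696 CPM from 1000 upward. The source of either was not tested, and the filtered control table holds no such barcodes.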

How the results depend on the processing

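No paired analysis was possible because there is 1 library per genotype. Each class's median kept its sign under every alternative except the mural median, which was -0.00 and ranged from -0.49 to 0.09. Cyp51 and Insig1 in astrocytes were lower under 14 of 15 alternatives each, with log2 ratios from -0.94 to -0.73 and from -1.02 to -0.73. Astrocyte members lower numbered 2 at a minimum of 50 CPM and 0 at 2-fold, against 4.

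Thinning to 1000 UMIs gave 5 lower and 1 higher endothelial members with a median of -0.41, 0 lower ependymal, 1 higher microglial, 1 lower mural, 1 lower and 0 higher neuroblast and 1 lower oligodendrocyte members, and it turned mural Sqle to 0.54 (-2.58 to 4.12). The cause was not tested beyond the fewer UMIs that thinning leaves. A minimum of 50 CPM gave 0 lower endothelial, 0 lower ependymal, 1 lower mural and 1 higher neuroblast members, from fewer genes. A minimum of 5 CPM gave 7 lower endothelial, 5 lower ependymal and 1 higher mural members. At 2-fold, 0 ependymal and 1 mural members were lower and 1 neuroblast member was higher. At a 5% mitochondrial limit 2 ependymal, 6 mural and 1 oligodendrocyte members were lower, and at 20% 1 mural member was lower and 1 higher. With doublets kept 4 mural members were lower, and without mitochondrial and rRNA-like totals 1 was higher.

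The sterol sum of astrocytes over oligodendrocytes (2.04 in the cKO library, 2.29 in control) was 2.36 in control at 2000 UMIs, 2.45 in control at a 5% mitochondrial limit, 2.12 and 2.40 with equal weight per cell, and 2.42 and 2.76 over each class's largest cluster, an alternative added after the data were seen. Astrocytes over microglia (7.68 and 8.47) was 9.32 in control at 5%, 6.87 in the cKO library with equal weight, and 9.24 and 9.98 over the largest clusters. The fatty acid sum of oligodendrocytes over astrocytes (3.20 and 3.37) was 3.33 and 3.46 at 2000 UMIs, 3.37 and 3.22 at 5%, 3.04 and 3.23 at 20%, 3.31 in control without mitochondrial and rRNA-like totals, and 3.84 in the cKO library over the largest clusters. The cause of these shifts was not tested. Depth limits the members under 20 CPM, for which no call was made.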

Other observations

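An unnamed cluster with Npy, Frzb and Prss56 among its leading genes had 24 cells in the cKO library and 99 in the control library. Scd1 stood at 715 CPM (interval 647 to 787) in its control cells, above the 264 CPM of control oligodendrocytes, and Scd2 at 2532 CPM. With 24 cells, the cKO library was not given a level there.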
